A study of Mus musculus with 3 samples.

Results

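The enzymes described here break down amino acids. They comprise 49 mouse genes, chosen by name as enzymes of branched-chain, aromatic, tryptophan, proline, glycine, glutamine, lysine, histidine and arginine metabolism. Of these, 47 had a probe set with a single gene symbol on the array, 84 probe sets in all, and 44 passed the filter on low values, out of 13473 genes tested. Methylmalonyl-CoA mutase, listed as Mut, is carried under its current symbol Mmut. Amt and Sds were not analysed here, because no probe set with a single symbol named them in the annotation used. Tat, Hal and Agxt lay below the filter.

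The series holds 3 single-colour Affymetrix arrays of whole kidney from C57BL/6 mice, 1 control mouse and 2 mice given acetate (C2, a short-chain fatty acid). Acetate was supplied at 200 mM in drinking water for 6 weeks, starting at 3 weeks of age, and all animals were kept under conventional housing. The comparison asks how prolonged oral acetate relates to kidney gene expression. All levels are the deposited log2 values, so a difference of 1 is 2-fold, and levels are compared between arrays and not between genes. Where 3 values stand in a row they are those of the control, acetate-fed mouse 1 and acetate-fed mouse 2.

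Much of the kidney's amino acid breakdown takes place in the mitochondria and cytosol of the proximal tubule, the segment that takes amino acids back from the filtrate. Branched-chain amino acids lose their amino group to a transaminase, pass the keto acid dehydrogenase complex and end as acyl-CoA units. Tyrosine ends as fumarate and acetoacetate, tryptophan runs through the kynurenine chain towards NAD, and glycine is split in mitochondria into carbon dioxide, ammonia and a carbon unit carried by folate. Glutamine and glutamate supply the ammonia that the kidney excretes with acid, and arginine and glycine are joined to start creatine synthesis.

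The sequences before the start sites of Afmid, Haao, Hpd, Fah, Gldc and Agxt2, the 6 members at least 1.5-fold lower in both mice, and of Glul, the member that rose, are shown so that their make-up can be set beside the values. Each is the 200 bases before an annotated start, from RefSeq on GRCm38.p6, 5′ to 3′ on the strand of the gene. Capitals mark matches, on either strand, to TATAAA (the TATA box), to CCAAT (the CAAT box), to GGGCGG (the GC box), to AGGTCA (the repeat unit of many nuclear receptor sites) or to CAAAGTCCA (a core of HNF4 sites, which holds no other of these motifs). RefSeq windows were matched for 43 of the 49 listed members, whether or not they were on the array.
Afmid, chr11:117825719-117825918, plus strand: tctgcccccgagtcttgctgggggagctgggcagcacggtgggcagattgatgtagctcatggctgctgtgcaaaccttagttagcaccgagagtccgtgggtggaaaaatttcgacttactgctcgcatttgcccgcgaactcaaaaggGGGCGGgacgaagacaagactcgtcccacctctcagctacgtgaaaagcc
Haao, chr17:83846791-83846990, minus strand: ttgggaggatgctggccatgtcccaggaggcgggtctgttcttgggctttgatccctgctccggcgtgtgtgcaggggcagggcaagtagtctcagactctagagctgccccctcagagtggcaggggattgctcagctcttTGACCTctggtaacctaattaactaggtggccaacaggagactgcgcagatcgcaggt
Hpd, chr5:123182724-123182923, minus strand: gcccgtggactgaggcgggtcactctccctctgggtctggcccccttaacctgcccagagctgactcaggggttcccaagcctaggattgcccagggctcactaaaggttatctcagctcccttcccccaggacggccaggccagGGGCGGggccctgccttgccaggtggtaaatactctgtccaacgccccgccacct
Fah, chr7:84605943-84606142, minus strand: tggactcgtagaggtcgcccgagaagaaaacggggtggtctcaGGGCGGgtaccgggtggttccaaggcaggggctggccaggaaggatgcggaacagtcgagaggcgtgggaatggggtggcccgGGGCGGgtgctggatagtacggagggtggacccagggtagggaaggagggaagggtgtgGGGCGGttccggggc
Gldc, chr19:30175442-30175641, minus strand: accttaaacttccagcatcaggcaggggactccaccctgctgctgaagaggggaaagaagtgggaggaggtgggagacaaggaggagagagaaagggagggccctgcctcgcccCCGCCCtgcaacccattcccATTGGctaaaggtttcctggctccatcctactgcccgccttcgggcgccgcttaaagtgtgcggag
Agxt2, chr15:10358333-10358532, plus strand: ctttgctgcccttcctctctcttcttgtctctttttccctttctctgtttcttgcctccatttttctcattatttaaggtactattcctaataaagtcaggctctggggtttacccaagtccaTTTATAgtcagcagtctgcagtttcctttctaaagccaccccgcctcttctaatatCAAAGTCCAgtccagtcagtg
Glul, chr1:153899729-153899928, plus strand: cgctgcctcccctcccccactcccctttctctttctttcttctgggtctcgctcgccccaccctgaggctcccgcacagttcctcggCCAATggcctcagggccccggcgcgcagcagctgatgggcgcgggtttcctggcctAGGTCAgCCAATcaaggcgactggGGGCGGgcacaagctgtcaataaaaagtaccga

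The 7 windows do not share a make-up. GGGCGG stands in those of Afmid, Hpd, Gldc, Glul and Fah, the last with 3 copies. It is found in 31% of all 32851 promoter windows of the same length, and in those of 19 members. The Agxt2 window is the poorest in G and C, at 43% against a median of 53% over all promoters. It holds TATAAA on the opposite strand, found in 9.96% of windows and in 5 members, and CAAAGTCCA, found in 0.317%. Agxt2 has 2 annotated starts, of which the upstream is shown. Counts of members here take 1 window for each of the 43 members matched, whereas the shares count every window. By that count no other member holds CAAAGTCCA. Haao holds AGGTCA on the opposite strand and Glul holds it on its own strand, a match in 11.4% of windows and in 11 members. The window before the second Agxt2 start, not shown, also holds it on the opposite strand. CCAAT stands in the windows of Gldc and Glul, of 22 members in all, and in 29.3% of all promoters. These are matches of letters and not measured binding.

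The enzymes were mostly lower in both acetate-fed kidneys: 37 of the 44 tested genes lay below the control array in both mice, 3 lay above it in both, and 4 did neither. Over all tested genes 30.9% were lower in both mice and 26% higher. Among the more highly expressed genes (the upper 40% of probe sets) those shares were 34.5% and 27.4%. A gene exactly equal to the control in a mouse counts in neither share. Over all tested genes 5811 were in neither, some of them with the mice on opposite sides of the control. The part of exact ties in the gap between members and all genes was not tested. The median difference of the 44 genes was -0.33 in acetate-fed mouse 1 and -0.27 in acetate-fed mouse 2, against 0 in both mice over all genes. At least 1.5-fold lower in both mice were 6 genes, namely Afmid, Haao, Hpd, Fah, Gldc and Agxt2. The background for that rule is 1.6% of all genes, and 0 members were 1.5-fold higher in both mice, where the background is 1.75%. At a fold of 5/4 the counts were 16 lower and 1 higher, with backgrounds of 5.24% and 4.97%. In mouse 1 alone 7 members were 1.5-fold lower (background 2.41%), and in mouse 2 alone 9 (background 2.59%). Both differences share the 1 control array, so they are not independent of each other.

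**Figure D1:**
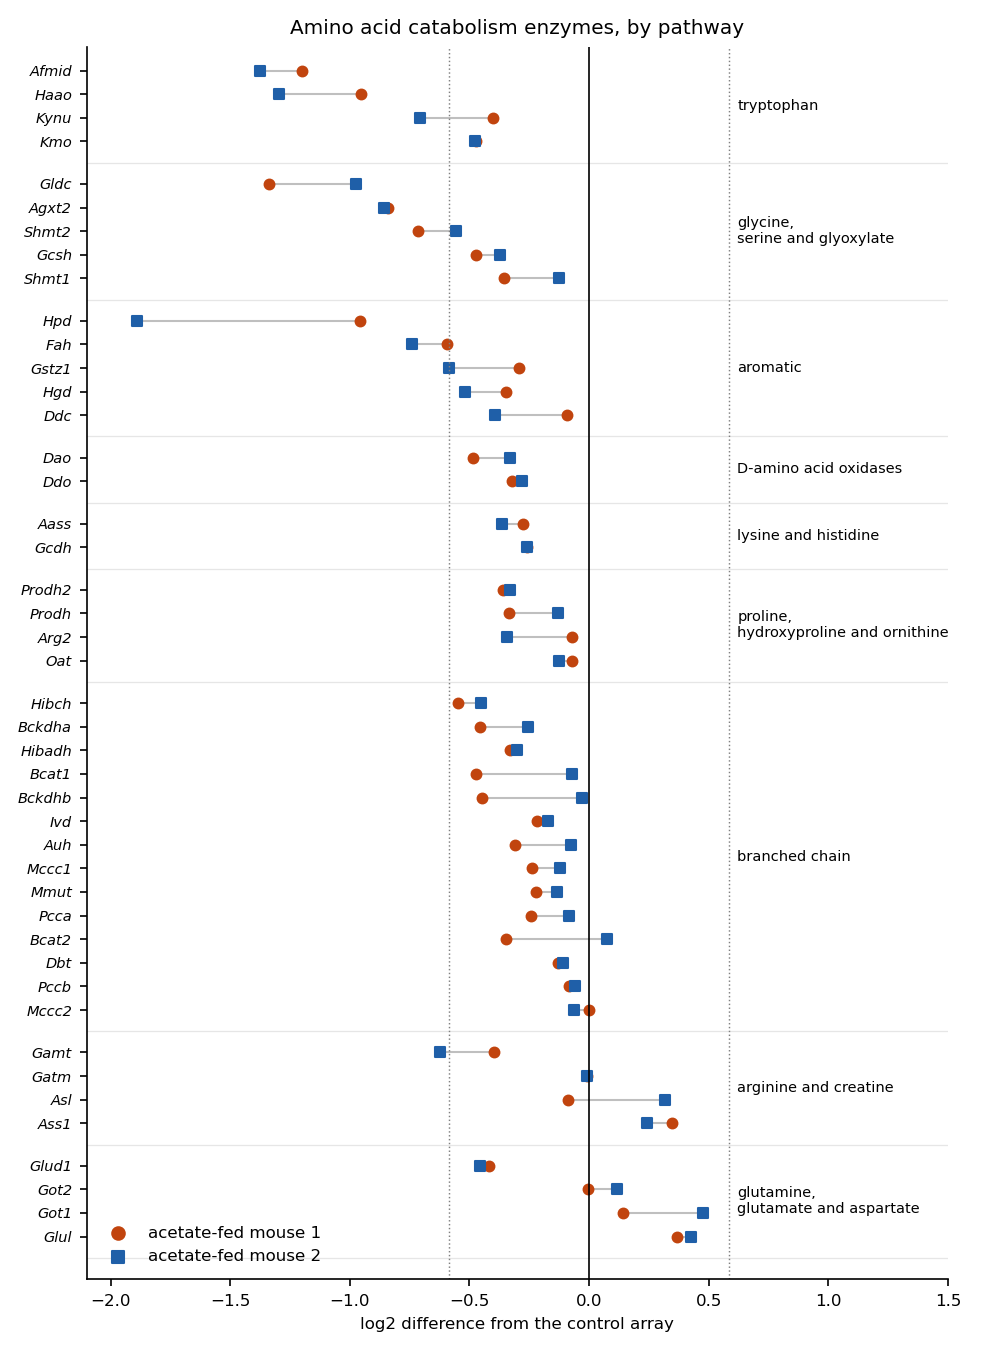
Log2 difference from the control array (x axis) of the 44 tested genes, grouped by pathway, in acetate-fed mouse 1 (circles) and mouse 2 (squares), with a grey line joining the 2 values of a gene and dotted lines at 1.5-fold. The tryptophan, glycine and aromatic genes reach furthest below the control, and Glul, Got1 and Ass1 lie above it in both mice.

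The test was limma's moderated test over 17923 probe sets, in which 16 of 43 fitted members passed as lower and 1 as higher at an adjusted p of 0.05. Its background is 6.12% of the 9451 fitted genes lower and 6.6% higher, and "fell" and "rose" below refer to this test. Probe sets with exactly the same value in both acetate-fed mice were left out of the fit, which removes 1 member, Gatm. Each probe set's own spread comes from the acetate-fed pair alone, with 1 residual degree of freedom. limma draws it towards a trend over all fitted probe sets, which carried 26.55 prior degrees of freedom. Standard errors and p-values from this fit therefore rest mostly on that trend. The single control is taken to vary as the pair does. limma passed 0 members after quantile normalization, after centring each array on its median, or with a gene taken as the mean of its probe sets, where 21, 23 and 20 members had an unadjusted p under 0.05. Over all fitted genes limma then passed 0 as lower and 0 as higher after quantile normalization and after averaging. After centring it passed 18 and 4, so the calls were lost for nearly all genes and not for the members alone. With tied probe sets kept, limma passed 3 members as lower, namely Kmo, Agxt2 and Gcdh, and 0 as higher, where the backgrounds are 4.92% and 3.97% and 10 members had an unadjusted p under 0.05.

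Markers of several cell types moved between the same arrays. All 10 macrophage markers were higher in both acetate-fed kidneys, by a median of 1.89 and 1.00 in mice 1 and 2, and had a summed level (log2) of 11.29 in the control, 13.18 and 12.29. The 8 fibroblast and matrix markers and the 6 tubular injury markers were also all higher in both mice. All 5 tested adipose markers were lower; adiponectin (Adipoq) was 9.98 in the control against 4.38 and 3.87 in mice 1 and 2. Of the 11 early proximal tubule markers that are not enzymes of this set, 8 were lower and 2 higher in both mice, with medians of -0.17 and -0.24 and a summed level (log2) of 15.58, 15.32 and 15.27. Of the 8 late proximal tubule markers 3 were lower and 1 higher in both mice, with medians of 0.04 and -0.27. They were uneven: Slc7a13 was 4.93, 7.03 and 7.88, and Slc22a7 was 11.90, 11.47 and 10.61. Of the loop and distal tubule markers 5 of 6, and of the collecting duct markers 4 of 5, were higher in both mice. In whole kidney, fewer cells of a type and less RNA per cell cannot be told apart, and the part of these shifts in the enzymes' differences was not tested. Of the hepatocyte markers Cps1 and Tdo2 read 3.26 and 3.50 on the control array, below the filter of 4.21, while of the 3 tested 1 was lower in both mice: Alb was 7.85, 6.20 and 6.56, Apoa1 was 5.73 on every array, and Ttr was 10.72, 10.29 and 11.10. The arrays were alike in sex-linked genes, with Xist at 11.80, 12.03 and 11.85 and Kdm5d at 3.09 on every array. Of 6 tested androgen-dependent kidney genes 3 were lower and 1 higher in both mice (backgrounds 30.9% and 26%). Of 5 fitted, 2 fell (background 6.12%). Acsm3 was 5.66, 4.44 and 4.94 (limma, adjusted p = 0.000446), and Slc22a30 was 8.22, 7.82 and 7.61 (limma, adjusted p = 0.0175). The part of this in the enzymes' differences was not tested.

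All 4 tryptophan enzymes fell, and they held the lowest median of the pathways, -0.71 and -1.0 in mice 1 and 2. Afmid, the formamidase that releases kynurenine from its formylated precursor, was 8.93 in the control against 7.73 and 7.55 in mice 1 and 2. Its fold was 2.29 lower in mouse 1 and 2.59 in mouse 2. The mean log2 difference was -1.29 with a moderated standard error of 0.14 (limma, adjusted p = 1.33e-07). Afmid was the 1 member at least 2-fold lower in both mice, where the background is 0.46% of genes. At that fold 0 members were higher (background 0.408%). A further Afmid probe set read 8.54, 7.54 and 7.28, and a dim one 5.27, 5.01 and 4.99, so all 3 tested probe sets were lower in both acetate-fed kidneys. In the RefSeq annotation Afmid overlaps Tk1, the thymidine kinase of dividing cells, and Tk1 was 5.73 in the control against 6.25 and 6.52 in mice 1 and 2, opposite to Afmid (limma, adjusted p = 0.00622; chosen after its values were seen).

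Haao, the dioxygenase that opens the ring of hydroxyanthranilate on the way to quinolinate and NAD, was 10.66 in the control against 9.70 and 9.36 in mice 1 and 2. Both acetate-fed values lay well below the control, 1.94-fold and 2.45-fold lower (limma, adjusted p = 7.63e-07). Kmo, the monooxygenase that hydroxylates kynurenine, was 9.23, 8.75 and 8.75, a fall of 1.39-fold in each mouse (limma, adjusted p = 0.0135). Kynu, kynureninase, was 7.30 in the control against 6.90 and 6.59 in mice 1 and 2 (limma, adjusted p = 0.0174). Every step measured between formylkynurenine and the opened ring was therefore lower in both mice, with Afmid and Haao moving furthest.

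Tyrosine is broken down by Tat, Hpd, Hgd, Gstz1 and Fah in turn. Tat, the aminotransferase that starts the route, read 4.12 in the control and 4.17 in each acetate-fed mouse, below the filter. The 4 enzymes after it all fell. Hpd, hydroxyphenylpyruvate dioxygenase, was 10.16 in the control against 9.20 and 8.27 in mice 1 and 2, or a mean of 8.74 ± 0.66 (SD, n = 2) in the acetate-fed pair. It was 1.94-fold lower in mouse 1 and 3.71-fold lower in mouse 2. The mice therefore differed from each other on Hpd almost as much as mouse 1 differed from the control. Its mean change was the largest of the set, -1.42 with a moderated standard error of 0.20 (limma, adjusted p = 8.48e-06). That standard error rests mostly on the trend over all probe sets and not on the spread of Hpd itself. With tied probe sets kept, limma gave Hpd an adjusted p of 0.618. This was not particular to Hpd. In that setting Afmid, Haao, Gldc and Fah did not pass either (limma, adjusted p = 0.183, 0.364, 0.373 and 0.278), whereas Agxt2 did (0.0308).

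Fah, fumarylacetoacetase, which closes the tyrosine route, was 11.79 in the control against 11.19 and 11.05 in mice 1 and 2, 1.51-fold and 1.67-fold lower (limma, adjusted p = 0.000235). Hgd, homogentisate dioxygenase, was 11.68, 11.33 and 11.16 (limma, adjusted p = 0.0154), and a dim Hgd probe set read 6.32, 6.32 and 6.27. Gstz1, the isomerase between Hgd and Fah, was 10.55, 10.25 and 9.96 (limma, adjusted p = 0.0245). Ddc, the decarboxylase that makes dopamine and other amines in the proximal tubule, was 10.84 in the control against 10.74 and 10.45 in mice 1 and 2, which did not pass (limma, adjusted p = 0.296). Mouse 2 was the lower of the pair for all 5 aromatic genes.

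The glycine, serine and glyoxylate enzymes had medians of -0.71 and -0.55 in mice 1 and 2, and 4 of 5 fell. Gldc, the glycine decarboxylase that carries the committed step of the mitochondrial glycine cleavage system, was 9.56 in the control against 8.22 and 8.59 in mice 1 and 2. It was 2.53-fold and 1.97-fold lower (limma, adjusted p = 1.23e-06). Gcsh, the lipoyl-carrying H protein of the same system, was 11.21, 10.74 and 10.84 (limma, adjusted p = 0.0183). Shmt2, the mitochondrial serine hydroxymethyltransferase that exchanges serine and glycine, was 9.77 in the control against 9.06 and 9.22 in mice 1 and 2 (limma, adjusted p = 0.00102). All 4 Shmt2 probe sets were lower in both mice, the further ones at 9.49, 8.85 and 8.76, at 7.18 and 6.74 in both mice, and at 5.95, 5.41 and 5.58. Shmt1, the cytosolic form, was 9.76, 9.40 and 9.63 and did not pass (limma, adjusted p = 0.314). The differences of its 4 probe sets ranged from -0.37 to 0. The mitochondrial and cytosolic forms were not tested against each other.

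Agxt2, the mitochondrial aminotransferase that moves amino groups onto glyoxylate and also breaks down dimethylarginines and beta-aminoisobutyrate, was 8.17 in the control against 7.33 and 7.32 in mice 1 and 2. The acetate-fed kidneys were nearly alike, 1.79-fold and 1.81-fold lower (limma, adjusted p = 9.03e-05). Agxt, the peroxisomal alanine-glyoxylate aminotransferase known mainly from liver, read 4.17, 4.17 and 4.07, below the filter. At the 1.5-fold rule, Fah lay just inside with a smaller difference of 1.51-fold and Shmt2 just outside with 1.47-fold.

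**Figure D2:**
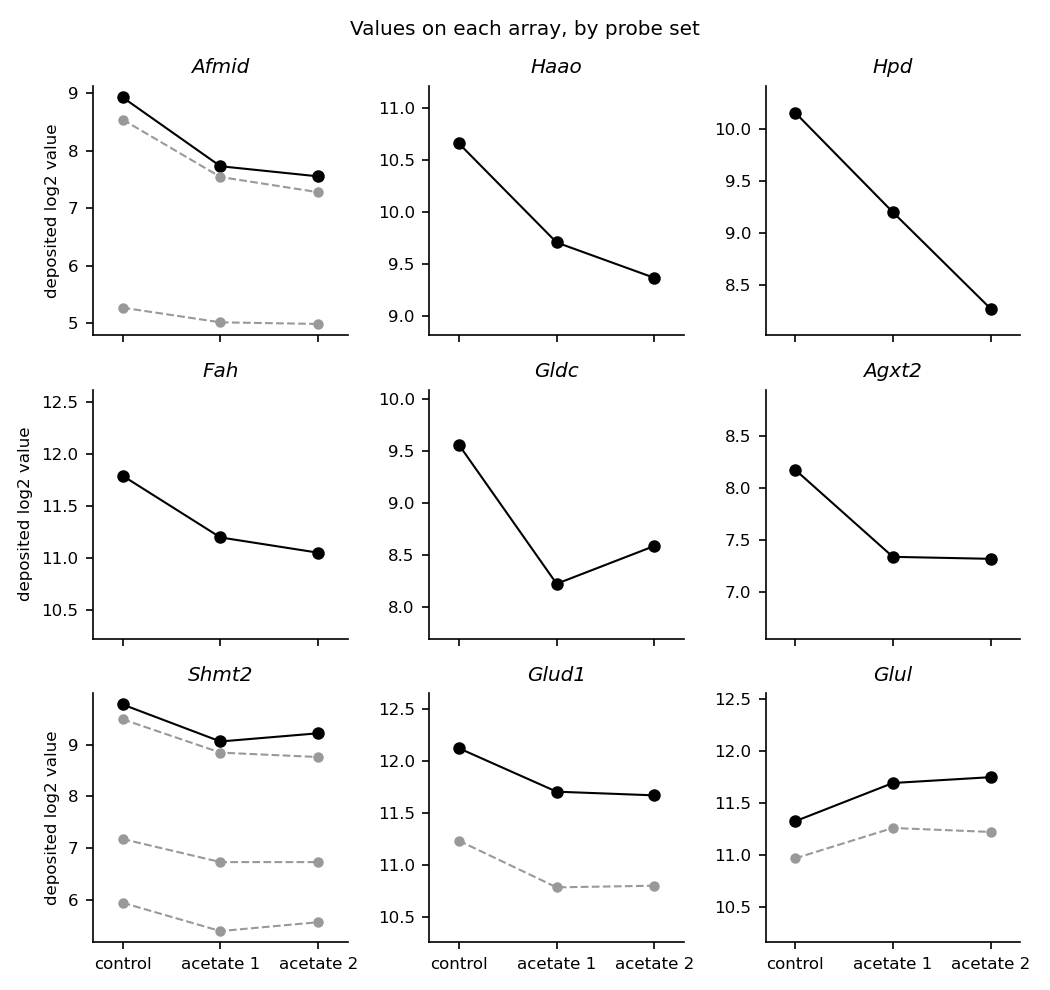
Deposited log2 value (y axis) on the control array and both acetate-fed arrays (x axis) for 9 genes, with 1 line for each tested probe set; black marks the probe set that stands for the gene and grey dashes the others. The control is the highest array in every panel but that of Glul, where it is the lowest.

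The 14 branched-chain enzymes were lower by smaller amounts, with medians of -0.28 and -0.10 in mice 1 and 2. Of them 12 were lower in both mice, 0 were 1.5-fold lower in both, and 1, Hibch, passed the test. Hibch, which releases hydroxyisobutyrate in valine breakdown, was 9.15 in the control against 8.60 and 8.70 in mice 1 and 2 (limma, adjusted p = 0.0103). Hibadh, the dehydrogenase that follows it, was 12.19, 11.86 and 11.89 (limma, adjusted p = 0.077). A dim Hibch probe set below the filter read 4.30, 3.49 and 3.91.

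The transaminases that start the pathway differed between the mice. Bcat1, the cytosolic form, was 7.28 in the control against 6.8 and 7.21 in mice 1 and 2, and the differences of its 3 probe sets ranged from -0.47 to 0.21. Bcat2, the mitochondrial form, was 7.21, 6.86 and 7.28, so mouse 2 lay above the control. Among the subunits of the keto acid dehydrogenase complex, Bckdha was 11.37, 10.92 and 11.12 (limma, adjusted p = 0.0602, and from 0.0388 with no filter on low values to 0.57 relative to the tubule markers over the alternatives). Its partner Bckdhb was 9.37, 8.92 and 9.34, close to the control in mouse 2, and the Dbt core subunit was 9.13, 9.0 and 9.02.

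In the leucine branch Ivd, isovaleryl-CoA dehydrogenase, was 10.75 in the control against 10.53 and 10.58 in mice 1 and 2. Its further probe set read 9.85, 9.51 and 9.51 (limma, adjusted p = 0.0853). The carboxylase subunit Mccc1 was 10.87, 10.63 and 10.75, and the hydratase Auh was 10.46, 10.15 and 10.38. Mccc2 was 10.00, 10.00 and 9.94, the smallest mean difference of the pathway by the probe sets that stand for the genes. Its further probe sets read 9.19, 9.30 and 9.20, and 8.30, 8.37 and 8.30, neither of them below the control in either mouse. The propionate enzymes, which take the ends of valine and isoleucine into the citric acid cycle, stayed within 0.25 of the control by their leading probe sets. Pcca was 10.63, 10.39 and 10.55, Pccb was 10.87, 10.79 and 10.81, and Mmut was 11.53, 11.31 and 11.39. A further Mmut probe set read 11.02, 10.59 and 10.76 (limma, adjusted p = 0.0706).

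Proline, hydroxyproline and ornithine enzymes were lower in both mice at 4 of 4 genes, with medians of -0.20 and -0.23, and none passed limma, where 1 had an unadjusted p under 0.05. Prodh, proline dehydrogenase, was 10.55 in the control against 10.21 and 10.42 in mice 1 and 2. Prodh2, which oxidises hydroxyproline, was 8.76, 8.40 and 8.43 (limma, adjusted p = 0.0992). Oat, ornithine aminotransferase, was 12.08, 12.01 and 11.95. Arg2, the mitochondrial arginase, was 8.71, 8.64 and 8.37, and its further probe set read 7.74, 7.39 and 7.31 (limma, adjusted p = 0.0824).

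Both lysine enzymes above the filter were lower in both mice without passing the test. Aass, which begins lysine breakdown, was 10.86, 10.58 and 10.497 (limma, adjusted p = 0.0913), and Gcdh, glutaryl-CoA dehydrogenase, was 9.96, 9.70 and 9.70 (limma, adjusted p = 0.22, and from 0.0306 with tied probe sets kept to 0.836 relative to the tubule markers over the alternatives). Hal, histidine ammonia-lyase, an enzyme of liver and skin, read 3.72 on every array, below the filter. Of the flavin oxidases of D-amino acids, Dao, which acts on neutral ones, was 11.10 in the control against 10.62 and 10.77 in mice 1 and 2 and fell (limma, adjusted p = 0.0248). Ddo, which acts on D-aspartate, was 7.22, 6.90 and 6.94 and did not pass (limma, adjusted p = 0.236), while its further probe set read 7.30, 6.85 and 6.88 (limma, adjusted p = 0.0563).

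Glutamine, glutamate and aspartate enzymes moved in both directions, with a median above the control in both mice (0.07 and 0.27). Glul, glutamine synthetase, which binds ammonia into glutamine, was 11.33 in the control against 11.70 and 11.75 in mice 1 and 2. It was the 1 member that rose, 1.29-fold and 1.34-fold (limma, adjusted p = 0.0224). A further Glul probe set read 10.97, 11.26 and 11.22, also above the control in both mice, but did not pass (limma, adjusted p = 0.158). Glud1, glutamate dehydrogenase, which releases ammonia from glutamate, moved the other way. It was 12.12 in the control against 11.70 and 11.67 in mice 1 and 2, and 1.34-fold and 1.37-fold lower (limma, adjusted p = 0.0108). Both Glud1 probe sets passed, the further one at 11.23, 10.78 and 10.80 (limma, adjusted p = 0.0121).

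The aspartate aminotransferases, which link glutamate to the malate-aspartate shuttle, did not pass. Got1, the cytosolic form, was 10.88 in the control against 11.02 and 11.36 in mice 1 and 2 (limma, adjusted p = 0.147). Got2, the mitochondrial form, was 12.03, 12.02 and 12.14, and its further bright probe set read 10.97, 11.05 and 11.24. The kidney's arginine and creatine enzymes were mixed, with medians of -0.05 and 0.12. Gatm, which joins arginine and glycine to guanidinoacetate in the proximal tubule, was 12.37, 12.36 and 12.36, the same value in both acetate-fed mice. Gamt, which methylates guanidinoacetate to creatine, fell from 8.01 to 7.61 in mouse 1 and 7.38 in mouse 2 (limma, adjusted p = 0.0184). Asl, argininosuccinate lyase, was 10.57, 10.48 and 10.89, on opposite sides of the control in the 2 mice. Ass1, which makes argininosuccinate, was 5.56, 5.91 and 5.81 by its only named probe set, a dim one, and did not pass (limma, adjusted p = 0.308).

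The order of the acetate-fed mice differed between pathways. Mouse 1 was below mouse 2 at 13 of the 14 branched-chain genes, and at 4 of the 5 glycine, serine and glyoxylate genes. Mouse 2 was below mouse 1 at 5 of 5 aromatic and 4 of 4 tryptophan genes. Over all tested genes mouse 1 was below mouse 2 at 38.9% and mouse 2 below mouse 1 at 31.3%, the rest being tied. With 1 array for each mouse these orders have no replicate and were not tested. Mouse 1 was also the mouse with the higher macrophage, matrix and injury markers, at 10 of 10, 8 of 8 and 6 of 6 genes, and the part of that difference was not tested.

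**Figure D3:**
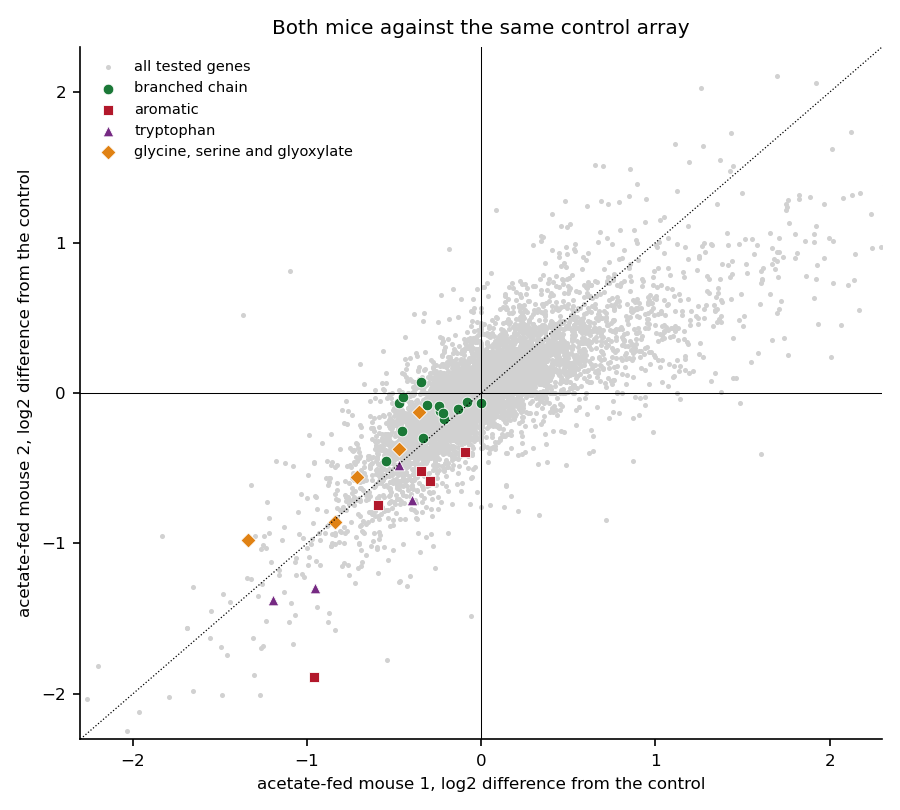
Log2 difference from the control in acetate-fed mouse 1 (x axis) against mouse 2 (y axis) for members of 4 pathways over all tested genes in grey; the dotted line marks equal differences, and 35 genes lie outside the axes. Branched-chain genes lie above the dotted line except Mccc2, and aromatic and tryptophan genes lie below it.

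Relative to the 11 early proximal tubule markers, a scaling added once the values had been seen, 22 of the 44 enzymes lay below in both mice and 10 above. This setting moves every gene alike, and the median of all genes by 0.17 in mouse 1 and 0.24 in mouse 2. Of all genes 8.62% then lay below in both mice and 78.8% above. Of the 6 genes at least 1.5-fold lower, 5 stayed past that fold, the exception being Fah, where the background is 0.831% of all genes. limma passed 5 members as lower and 1 as higher, with backgrounds of 1.49% and 8.39%. Afmid was then -1.08, Hpd -1.22, Gldc -0.95, Haao -0.92 and Agxt2 -0.65, while Glul was 0.60. The branched-chain median became 0.02. The markers themselves were uneven: Slc22a6, the organic anion transporter, was 11.27, 10.25 and 10.05, whereas Slc5a12, a lactate transporter, was 10.56, 10.57 and 10.69.

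**Figure D4:**
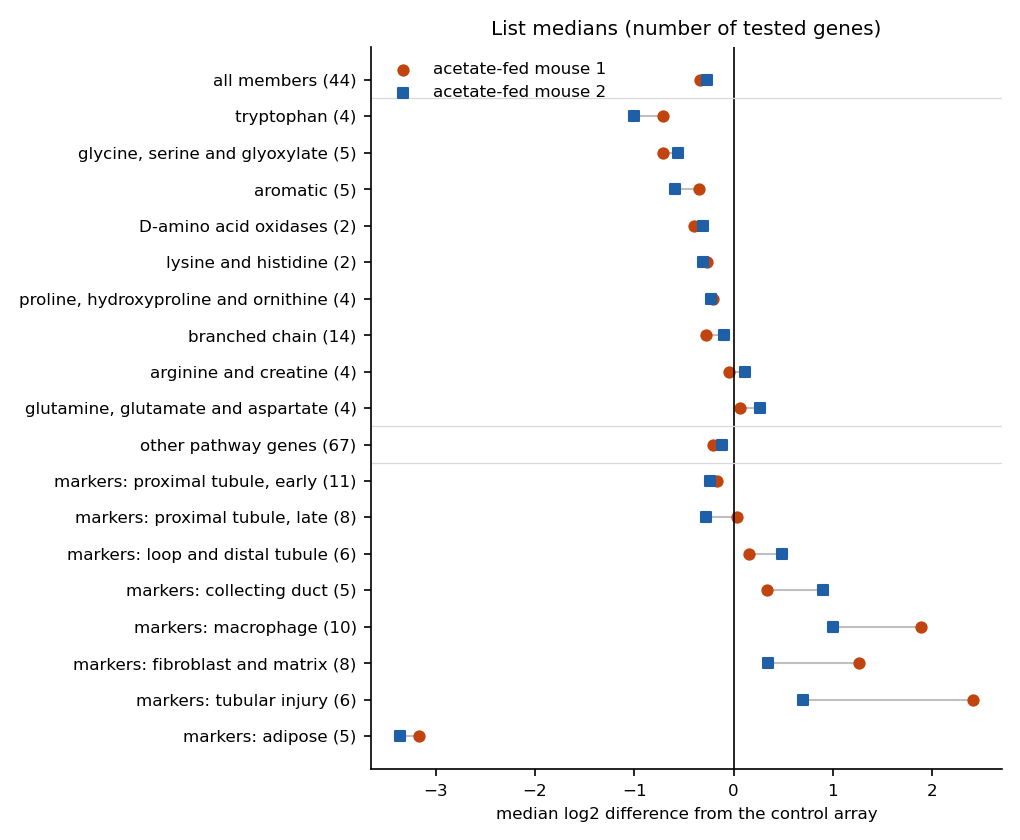
Median log2 difference from the control (x axis) of each list in acetate-fed mouse 1 (circles) and mouse 2 (squares), with the number of tested genes in brackets. The 44 enzymes lie at -0.33 and -0.27, the early proximal tubule markers at -0.17 and -0.24, and the macrophage, matrix and injury markers lie above the control in both mice.

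Of 90 further genes, of the same pathways and of cysteine and methionine metabolism, 67 were tested. In both mice 38 (56.7%) were lower and 12 (17.9%) higher, where the backgrounds are 30.9% and 26%. Their medians were -0.21 and -0.12 in mice 1 and 2. Of 62 fitted, limma passed 10 as lower and 1 as higher, with backgrounds of 6.12% and 6.6%. The pathways differed in this. Of 5 further tryptophan genes 3 were lower and 1 higher in both mice, and limma passed 0. Of 6 further aromatic genes 3 were lower and 1 higher, and limma passed 0 of the 5 fitted. Of 10 further glycine, serine and glyoxylate genes 8 were lower and 1 higher, and limma passed 4 as lower. With tied probe sets kept, limma passed 0 of the 67 further genes as lower and 2 as higher, Ftcd and Nos3 (adjusted p = 0.0304 and 0.0276). Both had exactly the same value in the 2 acetate-fed mice and lay only 0.05 and 0.09 above the control. The 11 calls given here were all lost in that setting. At least 1.5-fold lower in both mice were 3 of the 67 further genes, Bhmt, Dmgdh and Gclc, where the background is 1.6%. Bhmt, which remakes methionine from homocysteine with betaine, was 8.09 in the control against 6.25 and 5.58 in mice 1 and 2 (limma, adjusted p = 1.56e-09). Dmgdh and Sardh, the mitochondrial enzymes that take the dimethylglycine left by Bhmt to sarcosine and then to glycine, also fell. Dmgdh was 9.62, 8.59 and 8.41 (limma, adjusted p = 6.31e-07), and Sardh was 9.72, 9.22 and 8.99 (limma, adjusted p = 0.00183). Dld, the dehydrogenase subunit that the glycine cleavage system shares with the keto acid dehydrogenases, read 10.12 on every array.

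Gclc, the catalytic subunit of glutamate-cysteine ligase in glutathione synthesis, was 12.03 in the control against 10.79 and 11.09 in mice 1 and 2 (limma, adjusted p = 3.85e-07). Gpt2, the mitochondrial alanine aminotransferase, was 7.98, 7.53 and 7.33 (limma, adjusted p = 0.00971). Ddah1, which breaks down dimethylarginines as Agxt2 does, was 11.48, 10.97 and 10.94 (limma, adjusted p = 0.00249). Aldh7a1 of lysine breakdown was 11.60, 11.15 and 11.17 (limma, adjusted p = 0.0108), and Grhpr, which reduces glyoxylate, was 11.20, 10.71 and 10.83 (limma, adjusted p = 0.0179). Psat1 of serine synthesis (limma, adjusted p = 0.027) and Adssl1 of the purine nucleotide cycle (limma, adjusted p = 0.0181) fell more in mouse 1 than in mouse 2. Hdc, which makes histamine, was the 1 that rose, at 8.39, 8.94 and 8.70 (limma, adjusted p = 0.0384).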

How the data were processed

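Per the labels, total kidney RNA was labelled with biotin and hybridised to 1 array per mouse, and the groups were taken from the sample titles. The authors deposited log2 expression values for 45101 probe sets, with medians of 4.91, 4.94 and 4.93 on the 3 arrays. The submitters' processing notes name MAS5, and the route from there to log2 values is not given in the sources used here. No detection calls were used, and precision is limited by the number of arrays. Without 64 Affymetrix controls, 45037 probe sets remained, of which 34945 had 1 gene symbol in the platform annotation, 932 several and 9160 none listed.

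Probe sets in the upper 60% by mean over the arrays (27022, a mean of at least 4.21) were tested, and for each gene the brightest of these stands for it. Of these, 9099 (33.7%) had exactly tied acetate-fed values and were left out of the limma fit (version 3.58.1, R 4.3.3), which used lmFit, eBayes with an intensity trend, 1 residual degree of freedom and Benjamini-Hochberg adjustment. Tables were made with Python 3.11.15 and pandas 2.3.3. Members, lists, the left-out ties and tests were chosen with earlier results of these data known. Every member is accounted for, and those past 1.5-fold or limma are given in full. Each array is a separate mouse per the labels. Promoter windows came from the RefSeq table. Alternatives covered filter, scaling, pseudocount, ties, trend, probe set rule, fold and each acetate-fed mouse.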

Additional observations from a re-analysis of the deposited data

How the results depend on the processing

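No paired analysis was possible because the control is a single mouse and the groups share fewer than 2 replicate numbers. The count of 6 members 1.5-fold lower in both mice was 9 without acetate-fed mouse 1 and 7 without mouse 2, 5 after quantile normalization, 1 at a 2-fold rule and 16 at a fold of 5/4, where 1 was higher. The count of limma calls depended on the setting. It was 16 lower and 1 higher (578 and 624 of all genes), 17 lower with no filter (687 and 758), 11 and 0 with no intensity trend (476 and 533), 5 and 0 in the upper 40% of probe sets (147 and 95), 5 lower relative to early proximal tubule markers (141 and 793), and 3 and 0 with tied probe sets kept (663 and 535). It was 0 in both directions after quantile normalization (0 and 0), median centring (18 and 4) or averaging of probe sets (0 and 0). The prior degrees of freedom were 26.55 in the reported fit and 2.45, 3.53 and 5.69 after quantile normalization, centring and the stricter filter. With tied probe sets kept they were 0.36. Relative to the proximal tubule markers, the list medians became 0.0171 (branched chain), -0.24 (aromatic), -0.63 (tryptophan), -0.0150 (proline), -0.43 (glycine), 0.39 (glutamine), -0.15 (D-amino acid oxidases), -0.0856 (lysine) and 0.26 (arginine). The proline median of -0.22 became -0.20 after quantile normalization, -0.24 after centring and -0.26 over all probe sets. The cause of these moves was not tested. No member that passed limma changed direction under any alternative run.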
